A study of Mus musculus with 18 samples.

Results

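Cell division and DNA replication were followed in mouse intestine through 34 genes chosen by name. They act at S phase entry, in the MCM helicase and at the replication fork, in deoxynucleotide synthesis, in the cyclin and kinase machinery of mitosis, in the spindle checkpoint, and on mitotic chromosomes and the spindle. Each gene was read from the array probe set that the platform table assigns to its symbol alone, and from the brightest of them on average over the 18 arrays where there were several. This gave values for 33 of the 34 genes, out of 19938 genes named on the arrays, while Ccnb1 was not analysed here. All 33 exceeded the 25th percentile of the probe sets in at least 3 arrays, the condition for being tested.

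RNA from intestinal epithelial cells and from intestinal tumours had been hybridised to 18 Affymetrix whole-transcript arrays, in 6 groups of 3. Control samples, titled Stat3fl/fl, carry floxed Stat3 alleles, and samples titled Stat3-/- come from mice in which a Cre recombinase driven by the Villin promoter removes Stat3 from the intestinal epithelium, so that stromal and immune cells keep the gene. The series text places both genotypes of tumour mice on the APCmin/+ background, whose tumours form mostly in the small bowel, whereas the description attached to every sample, epithelial cells included, names chemically induced colorectal tumours. The tumour groups are male control (arrays 7 to 9), male Stat3-deleted (10 to 12), female control (13 to 15) and female Stat3-deleted (16 to 18). The epithelial groups are control (arrays 1 to 3) and Stat3-deleted (4 to 6), for which the labels give no sex and no Apc genotype. Age and tumour stage are given for no sample. Whether each sample is a different animal is not stated, and the p-values therefore rest on a spread between samples that may be only technical.

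In the intestine, cells divide in the crypts and stop dividing as they move onto the villi and differentiate. Dividing cells transcribe replication genes as they enter S phase, largely through E2F factors, and mitotic genes later, through the MuvB complexes with B-MYB and FOXM1. Loss of Apc activates Wnt signalling, which holds intestinal cells in a crypt-like dividing state. STAT3 is a transcription factor activated by cytokines and growth factors, known for its part in the survival and renewal of the intestinal epithelium.

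The promoters of 6 members are printed as examples that carry sequence elements known from replication and mitotic genes. Each is the 250 bases before the transcription start, 5′ to 3′ on the strand of the gene, from RefSeq on GRCm38.p6. Capitals mark 3 kinds of motif on either strand: the cell-cycle homology region (CHR: TTTGAA or TTCGAA), E2F sites (TTTCCCGC, TTTGGCGC, TTTCGCGC or TTTGCCGC), and the CCAAT box, the letters that the factor NF-Y recognises. Top2a, Mki67, Cdc20 and Cdk1 are mitotic genes with a CHR match, and Mcm5 and Mcm6 are replication genes with E2F matches. Not all members of their roles are like them. A CHR match lay in 2 of 5 mitotic cyclin and kinase genes, 2 of 4 checkpoint genes and 3 of 7 chromosome and spindle genes with a promoter. It also lay in 2 of 7 MCM and fork genes, of which 4 had an E2F match.
Top2a (chr11:99024190-99024439, minus strand): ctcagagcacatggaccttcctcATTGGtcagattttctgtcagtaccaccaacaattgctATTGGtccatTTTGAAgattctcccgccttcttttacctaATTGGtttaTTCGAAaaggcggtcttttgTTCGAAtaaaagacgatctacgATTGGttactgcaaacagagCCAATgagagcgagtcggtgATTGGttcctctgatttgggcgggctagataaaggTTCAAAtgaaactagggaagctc
Mki67 (chr7:135716380-135716629, minus strand): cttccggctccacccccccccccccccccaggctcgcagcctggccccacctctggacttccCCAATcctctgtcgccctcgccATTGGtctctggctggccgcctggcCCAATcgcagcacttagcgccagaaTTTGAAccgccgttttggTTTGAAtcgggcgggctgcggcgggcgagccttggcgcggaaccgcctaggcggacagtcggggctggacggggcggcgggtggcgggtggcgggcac
Cdc20 (chr4:118437344-118437593, minus strand): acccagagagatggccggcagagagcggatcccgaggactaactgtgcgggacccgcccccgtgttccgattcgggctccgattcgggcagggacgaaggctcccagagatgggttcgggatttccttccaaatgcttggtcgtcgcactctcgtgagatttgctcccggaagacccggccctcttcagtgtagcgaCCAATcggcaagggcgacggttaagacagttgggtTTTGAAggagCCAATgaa
Cdk1 (chr10:69352913-69353162, minus strand): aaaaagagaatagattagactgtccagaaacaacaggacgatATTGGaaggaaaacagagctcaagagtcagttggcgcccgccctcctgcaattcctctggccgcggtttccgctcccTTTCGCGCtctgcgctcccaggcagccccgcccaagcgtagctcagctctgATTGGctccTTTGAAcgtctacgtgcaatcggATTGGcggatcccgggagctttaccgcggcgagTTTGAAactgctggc
Mcm5 (chr8:75109259-75109508, plus strand): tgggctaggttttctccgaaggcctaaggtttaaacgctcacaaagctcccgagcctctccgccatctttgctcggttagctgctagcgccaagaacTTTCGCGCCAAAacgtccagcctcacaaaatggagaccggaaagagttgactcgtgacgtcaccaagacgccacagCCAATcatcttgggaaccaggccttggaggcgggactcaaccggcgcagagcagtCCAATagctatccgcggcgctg
Mcm6 (chr1:128359706-128359955, minus strand): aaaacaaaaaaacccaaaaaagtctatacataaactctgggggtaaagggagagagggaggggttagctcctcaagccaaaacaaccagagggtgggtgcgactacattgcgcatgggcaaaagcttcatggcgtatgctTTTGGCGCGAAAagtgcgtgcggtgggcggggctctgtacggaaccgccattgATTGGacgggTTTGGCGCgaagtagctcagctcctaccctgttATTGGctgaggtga

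Top2a holds 6 CCAAT boxes and 4 CHR matches, Mki67 holds 3 and 2, Cdk1 holds 3 and 2 with 1 E2F match, and Cdc20 holds 2 and 1. Mcm6 has 3 E2F matches, of which 2 overlap on opposite strands, and Mcm5 has 2 that overlap in the same way, and neither has a CHR match. A promoter was given for 28 of the 34 genes, Ccnb1 included, and a CCAAT box lay in 22 of them (78.6%), against 37.5% of 27025 genes with a promoter and 38.9% of the 13638 of those genes that were tested on the arrays. At least 2 CCAAT boxes were found in 15 members (53.6%), against 13.3% of the tested genes. A CHR match was present in 9 members (32.1% against 15.6%), namely Mcm2, Mcm7, Cdk1, Ccnb2, Bub1b, Cdc20, Mki67, Top2a and Kif11, and each of the 9 also had a CCAAT box (5.84% of tested genes have both). E2F matches were present in 5 members (17.9% against 3.17%), of which Mcm5, Mcm6, Mcm7 and Hells act in replication and Cdk1 in mitosis. The median GC content of the members' promoters was 56.8%, and that of tested genes 58%. These are matches of letters in a window of fixed length, and binding was not measured.

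Stat3 itself, the targeted gene, separated the genotypes without overlap in both tissues. Its log2 level ran from 9.74 to 9.91 in control epithelial cells and from 7.73 to 7.95 in deleted ones, a difference of -1.96 ± 0.15 (SE, 3 arrays against 3). In male tumours the control and deleted levels were 10.08 to 10.15 and 7.74 to 8.17, and in female tumours 10.03 to 10.35 and 8.07 to 8.46 (differences -2.09 and -1.87, limma adjusted p at most 1.24e-05 in the 3 comparisons). Epithelial markers, among them Epcam and Cdh1, had a mean log2 level between 10.62 and 11.20 on all 18 arrays. Single markers moved in opposite ways, with 3 of the 10 called higher and 3 lower in tumours of either genotype. Krt18 was 9.73 to 10.38 in epithelial cells and 11.46 to 12.02 in tumours, and Vil1 was 12.19 to 12.56 and 10.42 to 11.78, neither with overlap. Markers of other cells also differed between the tissues. The spread of all probe sets was narrower on epithelial arrays (SD 2.13 to 2.24) than on tumour arrays (2.27 to 2.38), which bears on every difference between the tissues. The mean of 14 enterocyte markers was 12.26 to 12.76 in epithelial cells and 8.50 to 11.67 in tumours, while 13 fibroblast and matrix markers rose from 6.51 to 6.86 up to 8.55 to 10.11 and 9 endothelial markers from 5.31 to 5.61 up to 7.28 to 7.92. Control tumours 9 and 15 had the lowest enterocyte levels (8.71 and 8.50) and the highest mean of 8 colon markers (7.87 and 7.82, against 5.47 to 6.54 on the other 16 arrays).

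**Figure D1:**
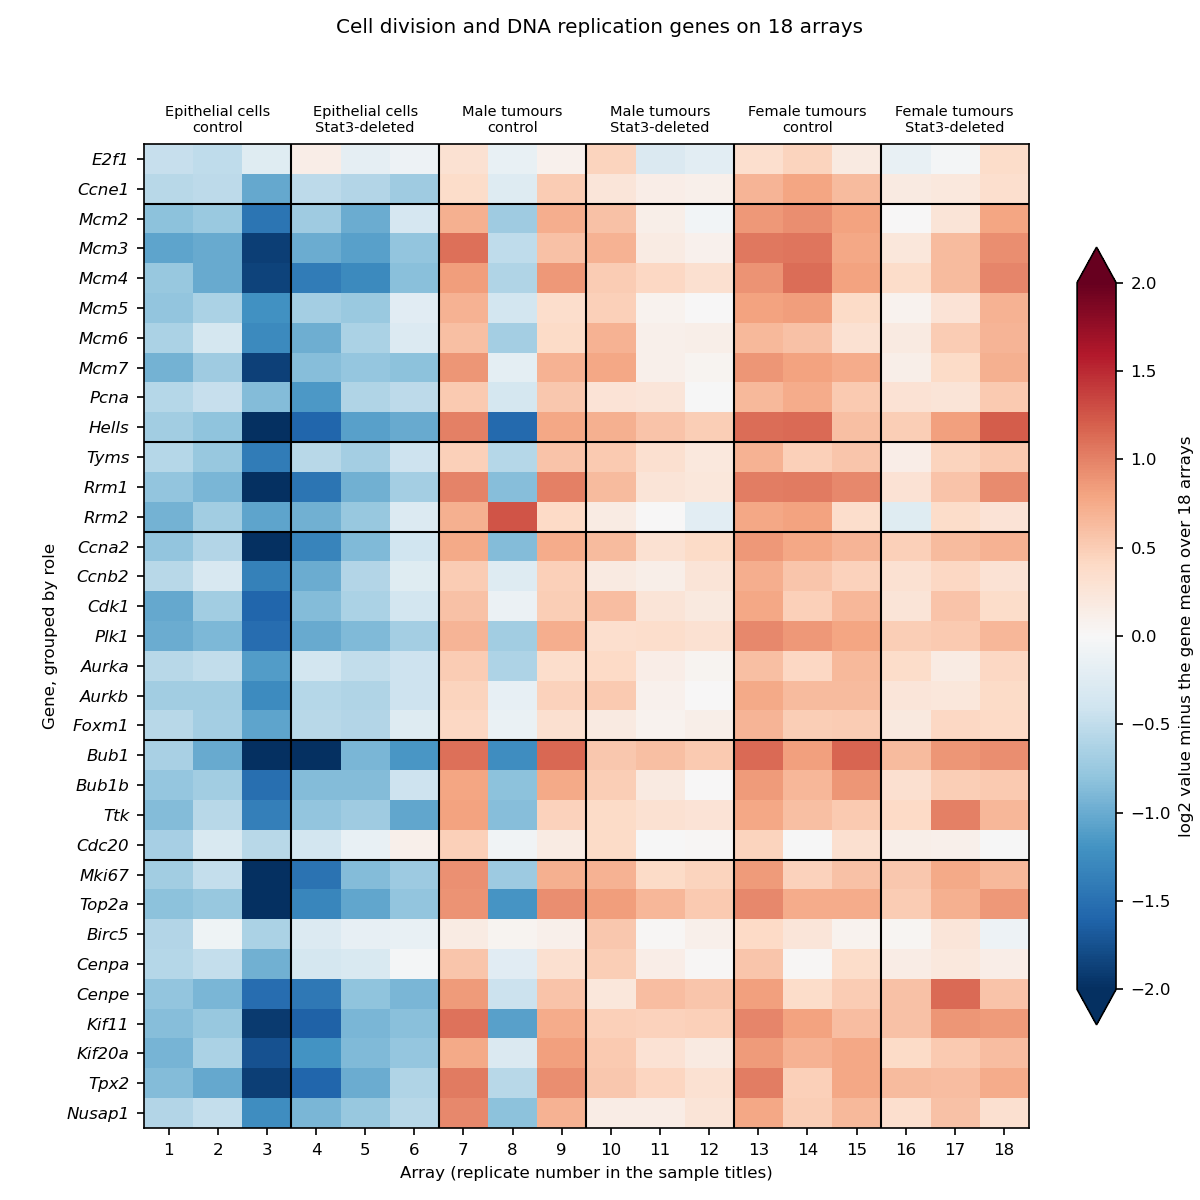
Log2 value of each of 33 genes (rows, grouped by role) on each of 18 arrays (columns, grouped by tissue and genotype), drawn as the deviation from the gene's mean over all arrays. Epithelial arrays 1 to 6 are below the mean for most genes and tumour arrays above it, except array 8, the lowest of the 12 tumours for 30 of 33 genes and the highest for Rrm2.

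The first comparison asked how tumours of control mice differed from control epithelial cells. Every measured gene of the set was higher in tumours: 33 of 33 rose, from 0.60 log2 units for E2f1 to 2.04 for Bub1, with a median of 1.52, while the median of all 17316 tested genes was -0.08 (6 tumour arrays against 3 epithelial arrays, limma with Benjamini-Hochberg adjustment over all tested genes, adjusted p from 9.44e-06 to 0.00578). Of all tested genes, 30.4% were called higher and 35.3% lower. By role, the median difference was 1.66 for the 8 genes of the MCM helicase and fork, 1.62 for the 3 deoxynucleotide enzymes, 1.53 for the 9 chromosome and spindle genes, 1.41 for the 4 checkpoint genes, 1.34 for the 7 mitotic cyclins, kinases and their regulator, and 0.88 for the pair at S phase entry. In bulk RNA a larger share of dividing cells and more RNA per dividing cell cannot be told apart.

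Markers of other cells moved in the same comparison. Of 11 crypt stem cell markers 10 were higher (median 1.98), and all 14 enterocyte markers were lower (median -2.19). Higher calls were also made for 11 of 13 fibroblast and matrix markers, 9 of 9 endothelial markers and 12 of 13 macrophage and dendritic cell markers, with medians of 2.70, 1.95 and 1.55. T and NK cell markers went down, with 6 of 15 called lower and 0 higher (median -0.51). The part of all these markers in the rise of the division genes was not tested.

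At S phase entry, E2f1 encodes a factor that switches on replication genes, and Ccne1 encodes cyclin E1, which with CDK2 starts replication. E2f1 measured 6.35, 6.31 and 6.57 on the control epithelial arrays, 7.12, 6.67 and 6.89 in male and 7.15, 7.25 and 6.99 in female control tumours. The groups did not overlap, but the lowest tumour came close to the highest epithelial array, and the difference of 0.60 ± 0.17 (SE) was the smallest of the set (limma adjusted p = 0.00578). Ccne1 was 6.83, 6.86 and 6.35 in epithelial cells, 7.75, 7.12 and 7.89 in male and 8.07, 8.18 and 8.02 in female control tumours. Every tumour exceeded every epithelial array, with a difference of 1.16 ± 0.16 (adjusted p = 1.96e-05).

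The MCM proteins 2 to 7 form the ring-shaped helicase that unwinds DNA at origins. Mcm3 showed the largest rise among them, from 6.78, 6.83 and 5.95 in epithelial cells to 8.93, 7.33 and 8.42 in male and 8.89, 8.91 and 8.62 in female control tumours (difference 1.99 ± 0.28, 3.98-fold). Mcm4 and Mcm7 rose by 1.86 and 1.82, Mcm2 by 1.56 and Mcm5 by 1.32. Mcm6 rose least, by 1.06 ± 0.27, from 8.17, 8.45 and 7.54 to 9.41, 8.13 and 9.19 in males and 9.45, 9.39 and 9.11 in females. It is the only MCM gene of the 6 whose groups overlapped, through the 8.13 of male control tumour 8. Pcna, the sliding clamp that holds polymerases on DNA, rose by 1.07 ± 0.20, from 9.34 to 9.75 in epithelial cells up to 9.86 to 10.96 in tumours. Hells, a chromatin remodeller of the SNF2 family needed for DNA methylation, had values of 6.94, 6.85 and 5.44 in epithelial cells, 8.65, 6.09 and 8.42 in male and 8.77, 8.78 and 8.25 in female control tumours. Tumour 8 lay below 2 of the 3 epithelial arrays for Hells, and the standard error of 0.44 on its rise of 1.75 was among the widest (adjusted p = 0.00289).

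Among the deoxynucleotide enzymes, Rrm1 and Rrm2 encode the large and small subunits of ribonucleotide reductase, and Tyms encodes thymidylate synthase. Rrm1 was 8.21, 8.07 and 6.74 in epithelial cells, 8.14 in male control tumour 8 and between 9.95 and 10.02 in the other 5 control tumours. Those 5 lay close together and well above the epithelial arrays, and the difference was 2.01 ± 0.37 (4.03-fold, adjusted p = 0.000295). Rrm2 was 7.18, 7.42 and 7.07 in epithelial cells, 8.83, 9.38 and 8.53 in male and 8.90, 8.93 and 8.48 in female control tumours, a rise of 1.62 ± 0.20 without overlap (adjusted p = 1.05e-05). Tumour 8, lowest of the tumours for Rrm1, was the highest for Rrm2. Tyms rose by 1.28 ± 0.22.

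CDK1 with cyclin A2 or cyclin B2 drives entry into mitosis, PLK1 and the Aurora kinases act on centrosomes and chromosomes, and FOXM1 is the transcription factor of the late wave. Cdk1 rose from 6.75, 7.08 and 6.18 in epithelial cells to 8.36, 7.65 and 8.27 in male and 8.55, 8.25 and 8.44 in female control tumours, a difference of 1.58 ± 0.20 without overlap (2.996-fold, adjusted p = 9.9e-06). Plk1 rose by 1.70 ± 0.24 and Ccna2 by 1.66 ± 0.35. Aurkb (1.34 ± 0.17), Foxm1 (1.14 ± 0.14), Ccnb2 (1.15 ± 0.22) and Aurka (1.04 ± 0.20) followed. Aurkb had the smallest adjusted p of the set (9.44e-06), with 6.995 to 7.56 in epithelial cells and 8.09 to 9.003 in tumours.

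The checkpoint kinases BUB1, BUBR1 (encoded by Bub1b) and TTK delay anaphase until chromosomes are attached, and CDC20 activates the ubiquitin ligase that starts anaphase. Bub1 measured 6.47, 6.11 and 4.72 in epithelial cells, 8.23, 5.88 and 8.27 in male and 8.26, 7.95 and 8.28 in female control tumours. Its difference of 2.04 was the largest of the set, and so was its standard error of 0.45, since arrays 3 and 8 lay far below the others of their groups (adjusted p = 0.00115). Bub1b and Ttk rose by 1.51 ± 0.28 and 1.32 ± 0.27. Cdc20 rose less, by 0.73 ± 0.16 (0.44 after quantile normalisation, adjusted p = 0.0222), from 6.97, 7.33 and 7.07 to 8.12, 7.56 and 7.80 in males and 8.09, 7.62 and 7.95 in females. The groups did not overlap for Cdc20, although arrays 8 and 14 came close to the highest epithelial array.

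The remaining genes build the mitotic chromosome and spindle. Mki67, the source of the Ki-67 proliferation antigen, measured 7.94, 8.16 and 6.61 in epithelial cells, 9.55, 7.91 and 9.34 in male and 9.49, 9.09 and 9.22 in female control tumours (difference 1.53 ± 0.34, 2.88-fold). Top2a, topoisomerase II alpha, which untangles sister chromatids, measured 8.16, 8.22 and 6.46, then 9.87, 7.79 and 9.90, then 9.94, 9.72 and 9.72 (difference 1.88 ± 0.41, 3.68-fold). For both genes array 8 fell inside the epithelial range, and the other 5 tumours lay above it. A second probe set of Top2a was dim, with a mean log2 level of 2.47, and averaging the pair lowered the rise of Top2a to 1.12. The spindle motors Kif11 and Kif20a rose by 1.70 ± 0.36 and 1.70 ± 0.24, and the spindle assembly factors Tpx2 and Nusap1 by 1.87 ± 0.31 and 1.22 ± 0.28. Cenpe, a kinetochore motor, rose by 1.52 ± 0.25, and Cenpa, the histone H3 variant of centromeres, by 0.94 ± 0.18. Birc5, which encodes survivin of the chromosomal passenger complex, measured 6.87, 7.37 and 6.83 in epithelial cells, 7.61, 7.52 and 7.56 in male and 7.85, 7.70 and 7.52 in female control tumours. Its rise of 0.61 ± 0.15 (adjusted p = 0.00228) fell to 0.32 when the arrays were quantile normalised again, and did not pass there (adjusted p = 0.0885).

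**Figure D2:**
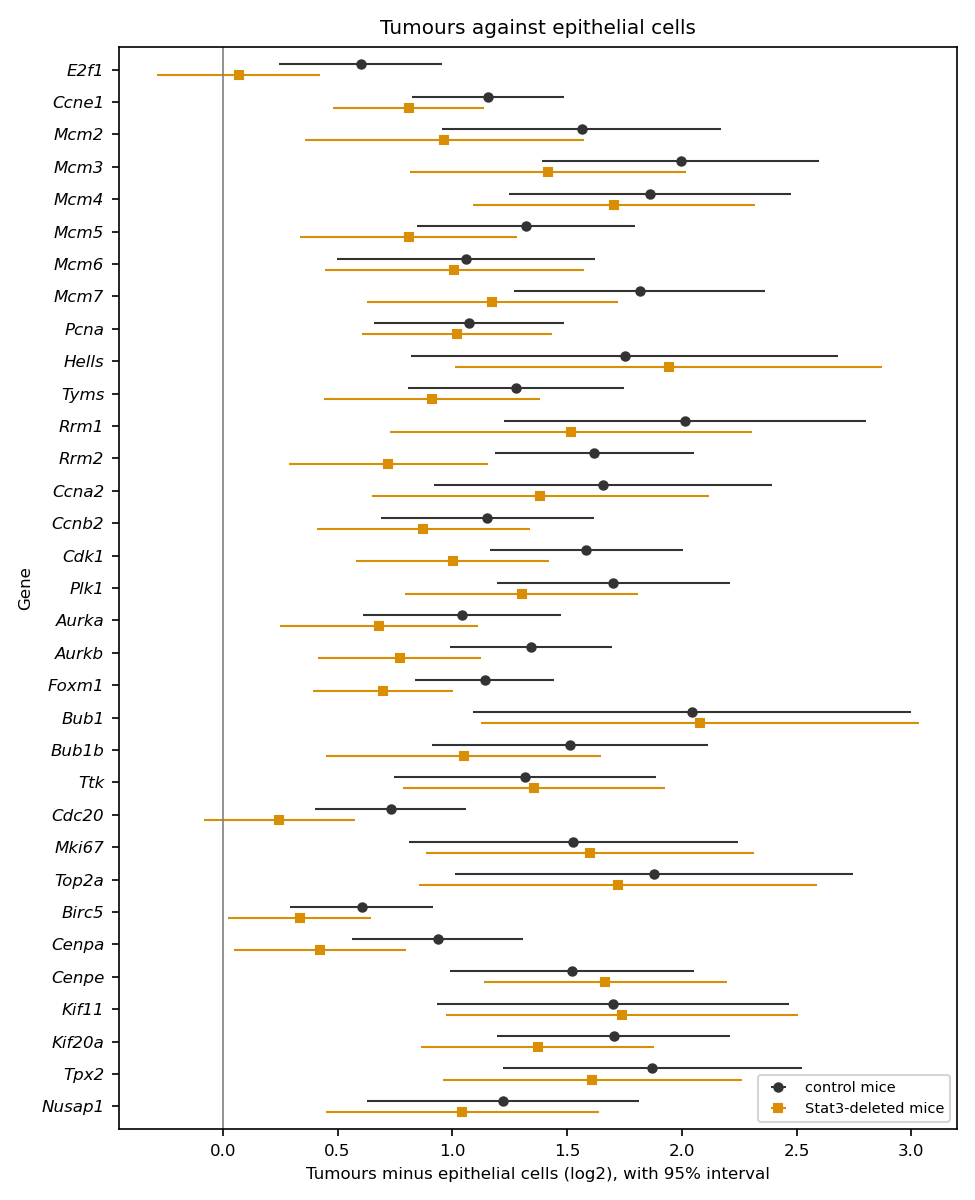
Tumours minus epithelial cells on the log2 scale for each of 33 genes, in control mice (circles, 6 arrays against 3) and in Stat3-deleted mice (squares, 6 against 3), with 95% intervals from limma. In control mice all points lie between 0.60 and 2.04 with intervals above 0, while in Stat3-deleted mice the intervals of E2f1 and Cdc20 include 0.

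The tumour and epithelial arrays of control mice did not overlap for 21 of the 33 genes, against 24.8% of tested genes that did not overlap with tumours higher. Without male control tumour 8 they did not overlap for 33 of 33, against 32.9%. The 12 genes that overlapped only through that array were Mcm6, Hells, Rrm1, Ccna2, Aurka, Bub1, Bub1b, Ttk, Mki67, Top2a, Kif11 and Nusap1. The median difference was 1.18 without epithelial array 3, 1.69 without tumour 8 and 1.42 without both, and all 33 genes passed in each of these fits. Quantile normalisation of all arrays lowered the median from 1.52 to 1.31, with all 33 differences still positive.

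In Stat3-deleted mice the set was also higher in tumours. All 33 differences were positive, with a median of 1.04 (all tested genes -0.07). Of the 33 genes 30 were called higher and 0 lower (limma with Benjamini-Hochberg adjustment, 6 arrays against 3). The shares of all tested genes called were 30.3% higher and 36.2% lower. The arrays did not overlap for 31 genes, against 27.1% of tested genes, the exceptions being E2f1 and Cdc20. Bub1 again differed most, by 2.08 ± 0.45, from 5.01, 6.21 and 5.96 in deleted epithelial cells to 7.66, 7.72 and 7.64 in male and 7.76, 8.01 and 8.05 in female deleted tumours. Hells rose by 1.94, Kif11 by 1.74, Top2a by 1.72, Mcm4 by 1.70 and Cenpe by 1.67, and Mki67 rose by 1.60 ± 0.34, from 7.16, 7.77 and 7.91 to between 9.02 and 9.39. Genes that did not pass were E2f1 (0.07, 95% interval -0.29 to 0.43), Cdc20 (0.25, -0.08 to 0.58) and Birc5 (0.33, 0.02 to 0.65, adjusted p = 0.0547). E2f1 was 6.95, 6.63 and 6.70 in deleted epithelial cells, 7.25, 6.52 and 6.60 in male and 6.66, 6.78 and 7.17 in female deleted tumours, so that both tissues spanned much the same values. Cenpa passed narrowly (0.42 ± 0.18, adjusted p = 0.0446) and did not pass in 9 of 18 alternative fits, among them the one without deleted epithelial array 4 (adjusted p = 0.145). Rrm2 (0.72 ± 0.20) and Aurka (0.68 ± 0.20) did not pass after quantile normalisation (adjusted p = 0.0775 and 0.0752), nor did Rrm2 with array weights (0.30, adjusted p = 0.0602). Over the set, quantile normalisation lowered the median to 0.83, with 2 genes negative, and array weights to 0.86, with 1 negative. Markers of other cells moved here too. Higher calls were made for 9 of 11 crypt stem cell and 10 of 13 fibroblast and matrix markers. The same held for 9 of 9 endothelial and 9 of 13 macrophage and dendritic cell markers. Lower calls were made for 4 of 14 enterocyte and 13 of 15 T and NK cell markers, and the part of all these markers was not tested.

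**Figure D3:**
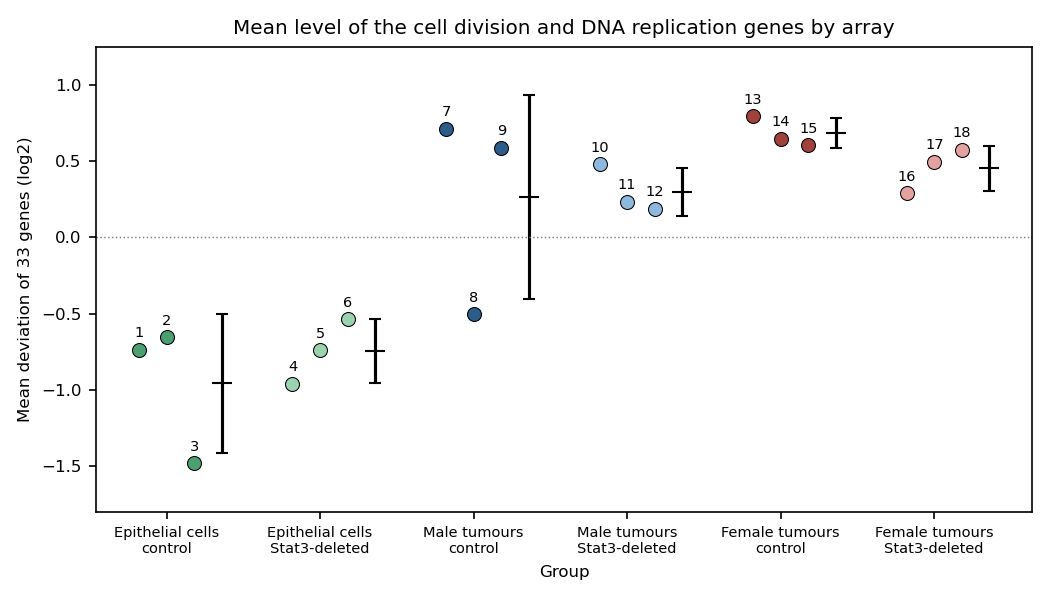
Mean deviation of the 33 genes from their means over all arrays (log2) on each array, numbered as in the sample titles, with the mean ± SD of each group of 3. Epithelial arrays lie between -1.48 (array 3) and -0.54, tumour arrays between 0.19 and 0.80 apart from array 8 at -0.50.

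The genes moved together from array to array within a group, most of all on 2 arrays. The mean deviation of the 33 genes was -0.74, -0.66 and -1.48 on the control epithelial arrays and -0.96, -0.74 and -0.54 on the Stat3-deleted ones. In tumours it was 0.71, -0.50 and 0.59 for male controls, 0.48, 0.24 and 0.19 for male Stat3-deleted, 0.80, 0.65 and 0.61 for female controls and 0.29, 0.50 and 0.57 for female Stat3-deleted samples. Epithelial array 3 and tumour array 8 stood below the rest of their tissue.

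Array 3 was the lowest of the 6 epithelial arrays for 30 of the 33 genes, all but E2f1, Pcna and Cdc20, and for 15.5% of all tested genes. It was the highest for 0 of the 33 and for 20% of all tested genes. Of 158 other cell-cycle genes, 94 were lowest there. The same array had the lowest mean of 11 crypt stem cell markers among the epithelial arrays (6.78, against 7.20 to 7.35) and the highest of 14 enterocyte markers (12.76, against 12.26 to 12.60). Array 8 was the lowest of the 12 tumours for 30 of the 33 genes, all but E2f1, Rrm2 and Birc5, and for 21.2% of all tested genes. It was the highest for 1 of the 33, Rrm2, and for 25.6% of all tested genes, so it stood apart in both directions. Of the 158 other cell-cycle genes 116 were lowest there. Its crypt stem cell markers averaged 8.76, within the 8.73 to 9.53 of the other tumours, and its enterocyte markers 11.11, also within their range. Its ileum markers averaged 7.96, the highest of the tumours, with 5.11 to 6.66 on the other 11, and its Paneth cell markers (10.28) were narrowly the highest. Its T and NK cell (5.67), B and plasma cell (6.52), macrophage (6.70) and endothelial (7.28) markers were the lowest. Its neutrophil markers (6.20) lay within the range of the other tumours. What part these play in the low values was not tested.

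The deviations of the genes from their group means were correlated over the 18 arrays, given here as a description of arrays that share a normalisation. The median Pearson r over 528 pairs was 0.84, and 0.52 without arrays 3 and 8. Rrm1, Top2a and Ccna2 followed the other members most closely (r of 0.98, 0.98 and 0.97 with the mean of the others), and Rrm2 (-0.08), E2f1 (0.26) and Birc5 (0.42) least. On array 3 Rrm2 was the lowest of the epithelial arrays, as most members were, but on array 8 it was the highest of the tumours. Without both arrays its r was 0.86. Ccne1 went the other way, from 0.86 to -0.05. The genes outside the set and the other cell-cycle lists whose deviations were most like the set's mean over the 18 arrays were Asf1b, Cbx5, Melk, Pbk, Rad54l, Vrk1, Mthfd1 and Pclaf, with r from 0.96 to 0.97, and from 0.71 to 0.89 over the 16 arrays without 3 and 8. Asf1b encodes a histone chaperone, Cbx5 the heterochromatin protein HP1 alpha, Melk, Pbk and Vrk1 kinases, Rad54l a recombination motor, Mthfd1 a folate enzyme and Pclaf a PCNA-binding protein.

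The next comparisons asked what deletion of Stat3 did to the division genes. In epithelial cells 31 of 33 were higher in the Stat3-deleted group and 2 lower, with a median of 0.28 (all tested genes 0.00), but 0 passed the test in either direction and 1 had an unadjusted p under 0.05 (limma with Benjamini-Hochberg adjustment, 3 arrays against 3). Of all tested genes 0% were called higher and 0.0231% lower. The leaning rested on control array 3: without it 16 genes were higher and 17 lower, with a median of -0.07. Leaving out deleted array 6 lowered the median to 0.15. Cdk1 had the largest difference, 0.48 (95% interval -0.01 to 0.96), from 6.75, 7.08 and 6.18 to 6.90, 7.14 and 7.41. Cenpa differed by 0.44 (0.01 to 0.87, adjusted p = 0.722), with 7.13, 7.21 and 6.73 in controls and 7.34, 7.39 and 7.65 in deleted cells. E2f1, Aurkb and Cenpa were the 3 genes whose deleted arrays all lay above the control arrays, against 6.3% of tested genes. Mki67 differed by 0.04 (-0.79 to 0.87) and Pcna by -0.12 (-0.60 to 0.35). Over the set the intervals reached a median of 0.61 to either side of the estimate, which is wider than the median estimate itself. T and NK cell markers averaged 6.58 to 7.11 on the control arrays and 7.18 to 8.62 on the deleted ones, and their part was not tested.

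In male tumours 15 genes were higher and 18 lower in Stat3-deleted samples, with a median of -0.01, and 0 passed (1 at unadjusted p under 0.05, limma), against 0.116% of tested genes called higher and 0.116% lower. The direction turned on single arrays. Without control tumour 8, 32 of the 33 genes were lower in Stat3-deleted tumours (median -0.31), and without control tumours 7 or 9 instead, 32 or 28 were higher (medians 0.25 and 0.19). Leaving out a deleted tumour moved the median to between -0.08 and 0.09. Quantile normalisation gave 24 higher and 9 lower (median 0.06), and array weights 0 higher and 33 lower (median -0.27). No gene passed in any of these fits. Rrm2 differed most, by -0.80 (95% interval -1.30 to -0.30, unadjusted p = 0.00364, adjusted p = 0.318), with 8.83, 9.38 and 8.53 in controls and 8.28, 8.14 and 7.92 in deleted tumours. It was the single gene whose deleted arrays all lay below the controls, against 8.03% of tested genes. Hells (0.52, -0.56 to 1.59) and Top2a (0.46, -0.55 to 1.46) had the largest positive estimates. Their control arrays were 8.65, 6.09 and 8.42 for Hells and 9.87, 7.79 and 9.90 for Top2a, and the deleted arrays, 8.36, 8.21 and 8.14 and 9.81, 9.63 and 9.49, lay between the low array 8 and the other controls.

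In female tumours 30 of 33 genes were lower in Stat3-deleted samples, with a median of -0.24 (all tested genes -0.04), and again 0 passed (2 at unadjusted p under 0.05, limma), against 0.0173% of tested genes called higher and 0.0866% lower. For 12 genes every deleted array lay below every control array, against 10.4% of tested genes: Ccne1, Mcm2, Mcm7, Pcna, Rrm1, Ccnb2, Plk1, Aurka, Aurkb, Foxm1, Bub1b and Kif20a. Ccne1 was 8.07, 8.18 and 8.02 in controls and 7.56, 7.60 and 7.72 in deleted tumours, a difference of -0.46 (-0.84 to -0.08, adjusted p = 0.875). Mcm2 was 9.15, 9.22 and 9.09 against 8.30, 8.55 and 9.08, so that deleted tumour 18 almost reached the controls (difference -0.51, -1.21 to 0.19). Rrm2 was 8.90, 8.93 and 8.48 against 7.88, 8.50 and 8.40, which overlap slightly (difference -0.51, -1.01 to -0.01, adjusted p = 0.975). Mki67 (0.02), Ttk (0.05) and Cenpe (0.20) were the 3 genes that were not lower. By role, the medians were -0.41 for deoxynucleotide enzymes, -0.36 at S phase entry, -0.31 for the MCM helicase and fork, -0.24 for mitotic cyclins and kinases, -0.20 for the checkpoint and -0.13 for chromosome and spindle genes. The order of these medians was not tested.

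Markers of other cells differed between the tumour genotypes as well. The mean of the 14 enterocyte markers was 11.05, 11.11 and 8.71 in male control and 10.79, 11.17 and 11.65 in male Stat3-deleted tumours. In females it was 10.95, 10.74 and 8.50 against 11.67, 11.26 and 10.30. The median differences of these markers were 0.94 in males and 0.93 in females, those of 6 proximal small intestine markers 0.9965 and 0.76, and those of 8 colon markers -0.68 and -0.50, with 0 calls in these 3 lists (limma). The mean of the 5 ileum markers was 6.74 (5.58 to 7.96) in male control and 5.39 (5.11 to 5.60) in male Stat3-deleted tumours. Female levels were 6.16 (5.60 to 6.61) in control and 5.39 (5.14 to 5.54) in deleted tumours. The median differences of these 5 markers were smaller, -0.38 in males, with 1 called lower, and -0.12 in females, with 0 calls. In males 1 of 8 neutrophil markers was also called lower, against 0.116% of all tested genes. Over both sexes 1 marker was called lower in each of the ileum, Paneth cell, crypt stem cell and neutrophil lists, against 0.422% of all tested genes. Tumours 9 and 15, with the lowest enterocyte and highest colon levels, are both controls. Without them the medians of the division genes were 0.19 in males and -0.26 in females, and the part of the other markers was not tested.

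**Figure D4:**
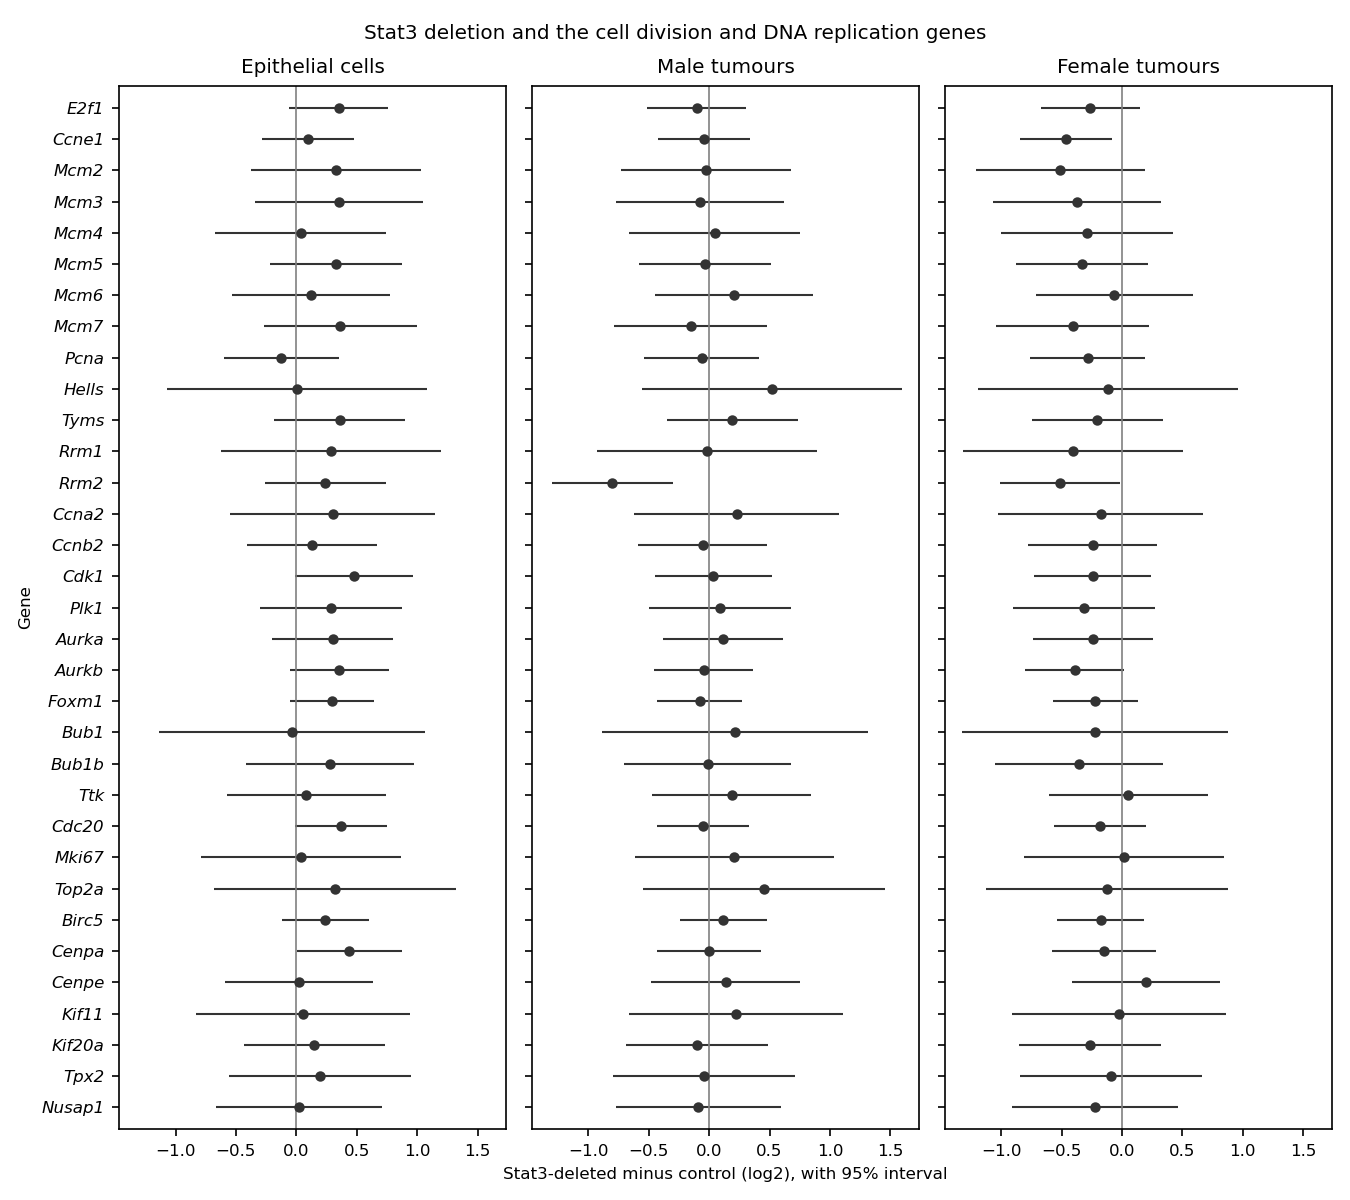
Stat3-deleted minus control on the log2 scale for each of 33 genes in epithelial cells, male tumours and female tumours (3 arrays against 3 in each), with 95% intervals from limma. Most intervals include 0, and the estimates lean to positive values in epithelial cells (median 0.28) and to negative ones in female tumours (median -0.24).

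Taking both sexes as the mean of their differences, 25 of the 33 genes were lower with Stat3 deleted, with a median of -0.12 (all tested genes -0.04), and 0 passed (1 at unadjusted p under 0.05, limma, 6 arrays against 6), against 0.289% of tested genes called higher and 0.422% lower. Without control tumour 8 all 33 were lower (median -0.27), and without control tumours 7 or 9 the median was -0.02 or -0.05. It was also -0.05 without control tumours 9 and 15, and -0.30 with array weights (32 lower). Rrm2 came closest, with -0.66 (95% interval -1.01 to -0.30, 1.58-fold lower, adjusted p = 0.082), and it was lower on average in males and in females. It passed when control tumour 9 was left out (-0.75, adjusted p = 0.0406). With arrays weighted by how well they followed their group, which gave array 8 the smallest weight of 0.163 and array 6 the largest of 4.87, 9 genes passed as lower: Rrm2 (-0.75, adjusted p = 0.00661), Ccne1, E2f1, Mcm2, Mcm3, Mcm5, Mcm7, Pcna and Aurkb. Under the same weights 5 passed as lower in female tumours (Ccne1, Mcm2, Mcm5, Rrm2 and Aurkb) and 1 as higher in epithelial cells (Foxm1, 0.38, adjusted p = 0.0463). The weights also raised the calls over all tested genes, to 5.47% lower in both sexes, 2.73% lower in females and 3.26% higher in epithelial cells.

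The difference of the deletion effect between tumours and epithelial cells had a median of -0.35 over the set, with 27 of 33 genes negative, and 0 passed (5 at unadjusted p under 0.05, limma), against 0.00578% of tested genes in each direction. Rrm2 had the largest, -0.90 (95% interval -1.51 to -0.29, adjusted p = 0.474). This contrast shares its arrays with those above, and its median was -0.12 without epithelial array 3 and -0.53 without tumour 8. Array weights gave 11 genes that passed as more negative in tumours, among them Rrm2 (-1.21), Mcm2 (-1.04) and Mcm5 (-0.92), with 3.81% of all tested genes called in that direction. The deletion effect in females minus that in males had a median of -0.28, with 31 genes negative, 0 calls, 0 at unadjusted p under 0.05 (limma) and 0% of tested genes called higher or lower. Without tumour 8 the median was 0.08, with 25 genes positive, and with array weights it was -0.01, with 14 positive and 19 negative. It was -0.50 without tumour 7 and -0.15 and -0.175 without deleted tumours 10 and 16.

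Male tumours, averaged over the genotypes, were lower than female tumours for 31 of 33 genes, with a median of -0.29 (all tested genes -0.02) and 0 calls (3 at unadjusted p under 0.05, limma, 6 arrays against 6), against 0.0173% of tested genes called higher and 0.00578% lower. Foxm1 had the smallest p, with -0.29 (95% interval -0.53 to -0.04, adjusted p = 0.749), followed by Ccne1 (-0.29) and Plk1 (-0.43). Without tumour 8 the median was -0.10, with 28 genes lower in males. Rrm2 (0.00), Cdc20 (0.00) and Birc5 (0.02) had estimates near 0.

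Other genes of the cell cycle, 158 tested of 166 listed in 8 lists, largely rose with the set in tumours. In control mice 131 were called higher and 3 lower, with a median of 1.08, against 30.4% higher and 35.3% lower over all tested genes (limma with Benjamini-Hochberg adjustment). All 24 kinetochore and checkpoint genes were higher, led by Mad2l1 (2.33 ± 0.40), which encodes the checkpoint protein MAD2. So were 25 of 26 spindle motor, cytokinesis and centrosome genes, led by the scaffold gene Anln (2.14 ± 0.29), and 23 of 26 condensin, cohesin and anaphase ligase genes, led by the condensin subunit gene Ncapg2 (2.44 ± 0.36). Of the polymerase, primase and clamp loader genes 23 of 25 were higher, among them Prim1 (1.87 ± 0.41), and of the origin genes 14 of 19, led by Orc2 (2.08 ± 0.18). Among 8 other deoxynucleotide enzymes 6 were called higher, led by the thymidylate kinase gene Dtymk (1.73 ± 0.18). Samhd1, whose product breaks down deoxynucleotides, fell by 0.93 (adjusted p = 0.02) and did not pass in 3 of 20 alternative fits.

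The lists that control the start of the cycle were more mixed. Of 24 cyclins, kinases and RB-E2F genes, 13 were called higher and 1 lower. Cdk4 (2.08 ± 0.29), Ccnd1 (2.05 ± 0.30) and Cdk6 (1.99 ± 0.17), which make up the cyclin D kinases, rose, and Rb1, which encodes the retinoblastoma protein they phosphorylate, fell by 1.27 ± 0.32 (adjusted p = 0.00269). Among 6 inhibitors of cyclin-dependent kinases, Cdkn1c (0.84, adjusted p = 0.0267), Cdkn2c (0.64, adjusted p = 0.00516) and Cdkn1b (0.32, adjusted p = 0.0393) rose, Cdkn2b fell by 0.76 (adjusted p = 0.0116), and Cdkn2a (0.20) and Cdkn2d (-0.13) did not pass. Cdkn1b did not pass in 11 of 20 alternative fits, Cdkn1c in 6 and Cdkn2b in 1. Cdkn1a, also listed among the inhibitors, had no value and was not tested.

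In Stat3-deleted mice 120 of the 158 genes were called higher and 4 lower in tumours (median 0.91), against 30.3% and 36.2% of all tested genes. None of the 6 measured inhibitors of cyclin-dependent kinases was called higher: Cdkn2d fell by 0.40 (adjusted p = 0.0148), and the other 5 lay between -0.47 and 0.35 without passing. The other 3 called lower were Pkmyt1 (-0.40), a kinase gene that holds CDK1 inactive, E2f7 (-0.37), a repressor of E2F targets, and Fzr1 (-0.34), an activator of the anaphase ligase. Of 18 alternative fits, Cdkn2d did not pass in 3, E2f7 in 2, Fzr1 in 1 and Pkmyt1 in 0. Deletion of Stat3 left 0 of the 158 called in epithelial cells, in male or in female tumours. Over both sexes 1 was called, Pold3, a subunit of DNA polymerase delta, which fell by 0.68 (adjusted p = 0.0495) and did not pass in 13 of 23 alternative fits. With 0.422% of all tested genes called lower there, 1 call among 158 is near the background.

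**Figure D5:**
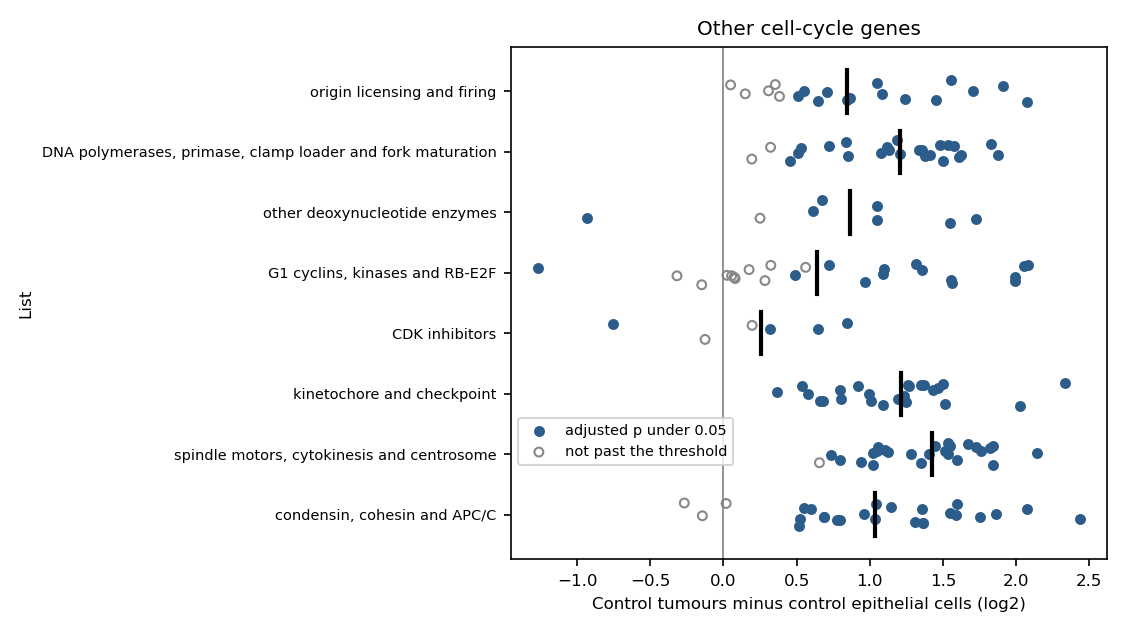
Control tumours minus control epithelial cells (log2) for 158 other cell-cycle genes in 8 lists, 1 point a gene, filled where the limma adjusted p is under 0.05, with a black bar at each list's median. Medians run from 0.26 for the inhibitors of cyclin-dependent kinases to 1.42 for spindle motors, cytokinesis and centrosome, and 3 filled points lie below 0 (Rb1, Samhd1 and Cdkn2b).

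Members with a motif in the promoter were set beside those without it, as a description. The median difference of control tumours from control epithelial cells was 1.56 for the 9 with a CHR match and 1.296 for the 18 without, 1.58 for the 5 with an E2F match and 1.41 for the 22 without, and 1.53 for the 21 with a CCAAT box and 1.19 for the 6 without. E2f1 (0.60) and Ccne1 (1.16) hold none of the 3 motifs in this window, and several members with motifs rose less than Ccne1, among them Cdc20 (0.73, with CHR and CCAAT) and Mcm6 (1.06, with E2F and CCAAT).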

How the data were processed

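The deposited values are log2 expression values, 1 column per array, which the authors made with RMA, per the submitters' processing notes. The log2 scale follows from the range of the values, and the sources used here give neither the RMA version nor whether the arrays were processed in 1 run. The deposited arrays did not share one distribution: the SD over probe sets was 2.13 to 2.24 on epithelial and 2.27 to 2.38 on tumour arrays, with medians of 5.88 to 6.07. Quantile normalisation of all arrays was therefore among the alternatives. Probe sets were named from the platform table where it gives 1 symbol (21789 of 35556). Genes were tested when above the array's 25th percentile in at least 3 arrays, which kept 17316.

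The 18 arrays entered one linear model with 6 group means, fitted in limma 3.58.1 under R 4.3.3 with an intensity trend, two-sided tests and Benjamini-Hochberg adjustment within each of 9 comparisons at a threshold of 0.05. The fit was run on simulated arrays with noise independent between genes and of equal spread on all arrays. Genes that move together and arrays of uneven spread, as in these data, were not simulated. The number of arrays limits the precision.

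Alternatives were other normalisations, filters, probe sets, variance models, array weights and samples. The members, gene lists and the rule for named genes were chosen with earlier results of these data known. The rule named all members, Stat3, up to 4 genes with the largest differences among those that passed in each other cell-cycle list, all measured inhibitors of cyclin-dependent kinases, and the 8 genes with deviations most like the members' mean. Leaving out arrays 3 and 8 together was chosen after their values were seen. Promoter motifs were searched in RefSeq promoters of GRCm38.p6.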

Additional observations from a re-analysis of the deposited data

How the results depend on the processing

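The count of genes called higher in tumours was 33 of 33 in control mice under every alternative except quantile normalisation (32). All 33 differences stayed positive there. Of 660 single fits 659 kept their call. In Stat3-deleted mice 528 of 540 kept theirs. The calls for Stat3 deletion came mostly with array weights, with 1 gene in epithelial cells, 5 in female tumours, 9 in tumours of both sexes and 11 for the difference between tissues, against 0 in each with all arrays and no weights. In tumours of both sexes, also without weights, 1 gene was called without control tumours 9 and 15 (Rrm2, limma adjusted p = 0.023). Another, Ccne1, was called without arrays 3 and 8 (limma adjusted p = 0.0424), where 0.789% of all tested genes were called lower. Leaving out each array in turn gave 0 to 1. The shares of all tested genes for the fits without tumour 9, or without 9 and 15, are not given here. With all arrays and no weights, 0.422% were called lower in this comparison. In that comparison, 40.7% of calls over all genes were higher, and 27.3% after median centring. The causes of these changes were not tested. No result with a call changed sign. No paired analysis was possible because the replicate numbers are unique over the series. The sampled gut segment, the share of dividing cells and the animal of origin were not given, and dim probe sets cannot be told from background.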
